A study of Danio rerio with 13 samples.

Results

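The comparison of the repressive histone mark H3K27me3 in resected against uninjured zebrafish ventricle rests on 6 of the 13 samples of the study. These are 3 libraries from hearts 5 days after resection and 3 from uninjured hearts. All fish were of the TuAB strain and 1 to 1.5 years old. The apical part of the ventricle was taken, dissociated and passed over a nylon mesh of 10 micrometre, and the cells held back by the mesh, described as enriched cardiomyocytes, were fixed for 30 min in 1% formaldehyde. The mesh enriches cardiomyocytes by size and does not purify them. The chromatin was immunoprecipitated with the Cell Signaling antibody C36B11, and the libraries of a group are described as biological replicates. Companion libraries of the active mark H3K4me3, 3 per group, are used below only where they bear on H3K27me3. All 42015 windows of about 4 kb outside the mitochondrial genome were taken, of 42037 in all, and 41651 of them had a test. The other 364 lie on unplaced sequences and are listed at 0.

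H3K27me3, trimethylation of lysine 27 of histone H3, is written by the Polycomb repressive complex PRC2, whose catalytic subunit is EZH2 or EZH1. In most vertebrate tissues it covers the promoters of developmental regulators that the tissue does not use, among them the Hox genes, while housekeeping promoters carry H3K4me3 in its place. Adult zebrafish rebuild resected ventricular muscle from existing cardiomyocytes, which loosen their sarcomeres and divide. The question named by the study is whether H3K27me3 over promoters of sarcomere and cytoskeleton genes takes part in this.

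The authors' deposited table gives each window 1 mean normalised read count over all 6 libraries, 1 log2 fold change of resected over uninjured, its standard error (SE), the Wald statistic (their ratio) and p-values. Values per library are not used here because the table holds none, so no sample can be shown on its own and the spread between libraries enters only through the SE. Where group means are given below, they are those implied by the mean and the fold change, assuming libraries of equal weight. A gene stands for its window with the highest H3K27me3 mean, which gave 24075 genes with a test. Of them, 10685 had more than 1 window. Windows of neighbouring genes share reads, since 9677 windows (23.2%) overlap a window of another gene.

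The resected and uninjured ventricles could not be told apart at any single promoter. The authors' adjusted p, from DESeq2, was under 0.05 for 0 of 41651 windows (0.0%), and the smallest was 1.00 after rounding. At an unadjusted p under 0.05 stood 1288 windows (3.09%), fewer than the 2083 that 41651 tests give at that p if nothing differs. Among them 415 (0.996%) had more H3K27me3 in resected ventricle and 873 (2.1%) had less. Over genes the same count was 695 (2.89%), with 277 (1.15%) above 0 and 418 (1.74%) below. The smallest p of the table, 4.46e-05, belonged to a clone-named gene.

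The noise sets what these data could have shown. The median SE of the log2 fold change was 0.43 (5th to 95th percentile 0.35 to 0.58), so the 95% interval around a typical window reached 0.85 log2 units, or 1.80-fold, to either side. At the median SE a window needed a log2 change of 2.11, which is 4.31-fold, to be the only window called at an adjusted p of 0.05. For 8729 genes (36.3%) the 95% interval lay within 1 log2 unit of 0, and a change of more than 2-fold lay outside their interval. For the other genes a change of that size in one or both directions lay inside the interval. The Wald statistics had an SD of 0.89 over genes, where 1 is the value for pure noise with a correctly sized SE. Every direction described below is therefore a lean, a count of genes on either side of 0, and no gene named below passed the adjusted threshold.

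The level of the mark ranked promoters more clearly than the injury did, although its range was narrow. Level here is the mean normalised count of the H3K27me3 libraries. The study's 1 input library was not used here, and the part of background reads in the level was not tested. Windows of the mitochondrial genome, which carries no nucleosomes, had means of 469 to 1217. These means were not taken as a measure of background at the other windows. The median gene had a mean of 60.9 normalised counts, and the 5th and 95th percentiles were 32.0 and 109, a span of 3.42-fold. H3K4me3 at the same windows spanned 16.1-fold, between 26.8 and 429. Across the 24075 genes the means of the marks had a Spearman correlation of -0.39, a description over genes that share the 2 sets of libraries.

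Among the lists and families measured, those of embryonic patterning factors had the highest medians of H3K27me3. The 27 Hox genes, which specify position along the body axis, ran from hoxa10b at 130 to hoxc9a at 178 normalised counts, so that the lowest Hox gene lay above the 95th percentile of all genes. hoxc9a (chromosome 23, 35994458 to 35998457, genome build not stated) was followed by hoxc6a at 176 and hoxb7a at 175. Grouped by letter, the Hox genes differed little in level, with medians of 159 for hoxa, 155 for hoxb, 154 for hoxc and 151 for hoxd. The letters are not all single clusters, since hoxa genes lie on chromosomes 16 and 19 and hoxc genes on 11 and 23. Pax genes had a median of 138, sine oculis homeobox genes 136, Dlx genes 133, Nkx genes 126, LIM-homeodomain genes (Lhx and Isl) 122 and Irx genes 117, against 60.9 over all genes. All members measured of the Pax (10), Dlx (6), Nkx (12), Lhx and Isl (9) and Irx (8) families lay above the median gene, and 8 of 9 of the sine oculis family did. T-box genes had a median of 104, Sox genes 79.5 and Fox genes 73.1, with a wide spread within each family.

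Genes of other tissues also lay above the median gene. The neuronal list had a median of 99.5 (39 genes), led by foxg1a, a forebrain factor, at 163 and otpa, a hypothalamic homeobox factor, at 161. Protocadherins, adhesion proteins best known from neurons, had 85.4 (73 genes), potassium channels 77.6 (83) and the skeletal muscle list 78.1 (46), in which the myogenic progenitor factor pax3a stood at 167.

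Factors of the heart itself also ranked above the median gene as a list. The 43 cardiac transcription factors measured had a median of 84.7, with 34 above the median gene. The highest were nkx2.7, a homeobox factor of the early heart, at 143 and tbx1, a T-box factor of the second heart field, at 143. The thick filament genes of the sarcomere had 75.3 (16 genes), the cardiac ion channels 75.8 (27), the thin filament 64.7 (31) and the Z-disc and M-band 63.8 (42). The actin and adhesion cytoskeleton stood at 54.9 (102), below the median gene.

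Housekeeping genes had the least. Medians were 43.9 for mitochondrial ribosomal proteins (76 genes), 44.8 for cytosolic ribosomal proteins (96), 46.3 for ATP synthase (17) and 46.6 for respiratory complex I (47). DNA replication and cytokinesis genes stood at 48.8 each (57 and 52 genes), and the Klf and Sp factors at 48.4 (30). The genes of Polycomb and Trithorax proteins had 53.1 (61 genes). A member that broke with its list was bmi1a, a PRC1 subunit, at 139.

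**Figure D1:**
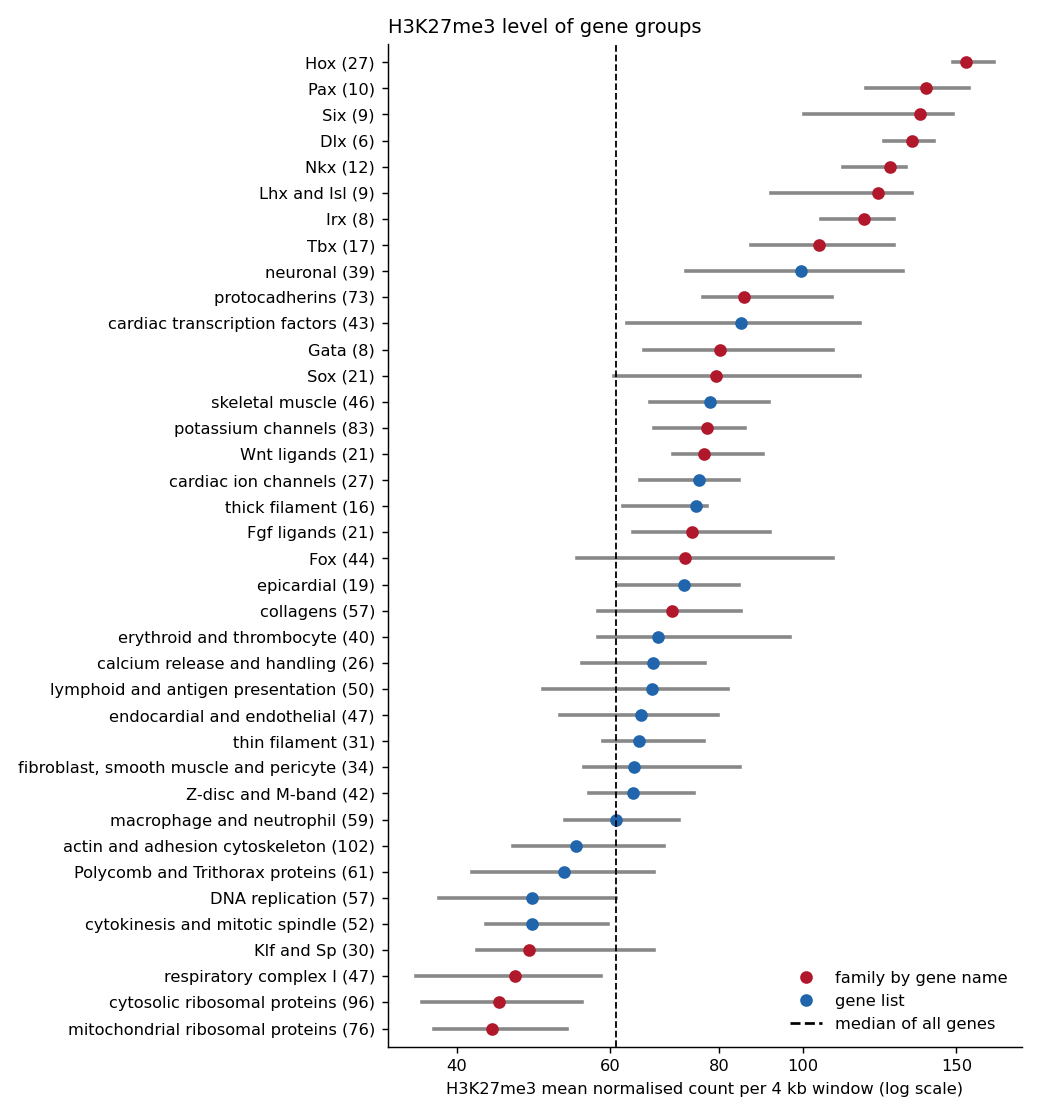
H3K27me3 level of 18 gene lists (blue) and 20 families found by gene name (red), with the number of genes in brackets. Points are medians of the mean normalised count over all 6 libraries on a log axis, bars the middle 50% of genes, and the dashed line the median of all genes at 60.9. Hox genes stand at 154 and mitochondrial ribosomal proteins at 43.9.

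The very highest windows were of another kind than these regulators. The clone-named gene CABZ01079258.1 had the highest mean, 2712. Next among genes with a symbol came dusp27, a muscle phosphatase-like gene, with 2202, a 5_8S_rRNA locus on chromosome 5 with 1568, slc5a8, a monocarboxylate transporter, with 1282, csmd2 with 690 and elp5 with 516. Several of them also had a high H3K4me3 mean at the same window, 756 at that rRNA locus and 534 at slc5a8, whereas dusp27 had 56.5. Of the 241 genes in the highest 1%, from 161 normalised counts up, 183 (75.9%) were clone-named, against 29.1% of all genes. 170 (70.5%) of them had an H3K4me3 mean above that of the median gene, 36 (14.9%) lay on chromosome 4, which holds 7.18% of the genes, and 15 were rRNA or signal recognition particle RNA loci. The list of transcription factor families gave 12 of the 241 (4.98%), 9 of them Hox genes, against 1.2% of all genes. Down to the highest 10% (2408 genes, from 92.0 counts), those families held 5.52%, all 27 Hox genes were included, and 31.9% had H3K4me3 above the median gene. Whether repeats or read mapping set the highest windows was not tested. At these windows the difference between groups was small, with a log2 fold change of 0.04 (95% interval -0.50 to 0.58) at dusp27 and 0.10 (-0.37 to 0.57) at the rRNA locus.

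Chromosome 4 had the highest median level of the chromosomes, 67.6 over 1728 genes, while the others ran from 57.7 to 62.6. It also had the largest share of genes with a log2 fold change above 0, 61.3%. Among all genes with a mean of 66.1 to 71.9 counts, a range that holds this chromosome's median, 60.6% lay above 0. A share particular to the chromosome was not tested.

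The direction of the difference between groups followed the level. Ordered into 10 groups of equal size by H3K27me3 level, the lowest had a log2 fold change above 0 at 772 of 2408 genes (32.1%) and the highest at 1691 of 2408 (70.2%), with each group above the one before it. Over all genes the share was 52.3%. At an unadjusted p under 0.05, the lowest group held 9 genes above 0 and 127 below, and the highest held 58 above and 12 below. The medians of the log2 fold change were small throughout, from -0.24 in the lowest group to 0.14 in the highest. The level was taken over both groups of hearts together, and the Spearman correlation of level and Wald statistic over genes was 0.30.

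The level of H3K4me3 went with this order. Its median mean at the same windows was 257 in the lowest H3K27me3 group and 48.0 in the highest. Sorted by H3K4me3 instead, 63.0% of genes in the lowest of 10 groups had an H3K27me3 log2 fold change above 0 and 28.6% in the highest, with no steady order below the median. Promoters with the most H3K4me3 thus had lower H3K27me3 counts in resected than in uninjured ventricle more often than not. The same held for promoters with the least H3K27me3. Promoters with both traits were not counted apart. The part that efficiency of immunoprecipitation, scaling or background reads have in this was not tested, and the tables give no depth per library. For this reason each gene list is given below with 2 counts: members above 0, where all genes stand at 52.3%, and members whose Wald statistic lies above the median of genes in the same level group, where all genes stand at 50%.

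**Figure D2:**
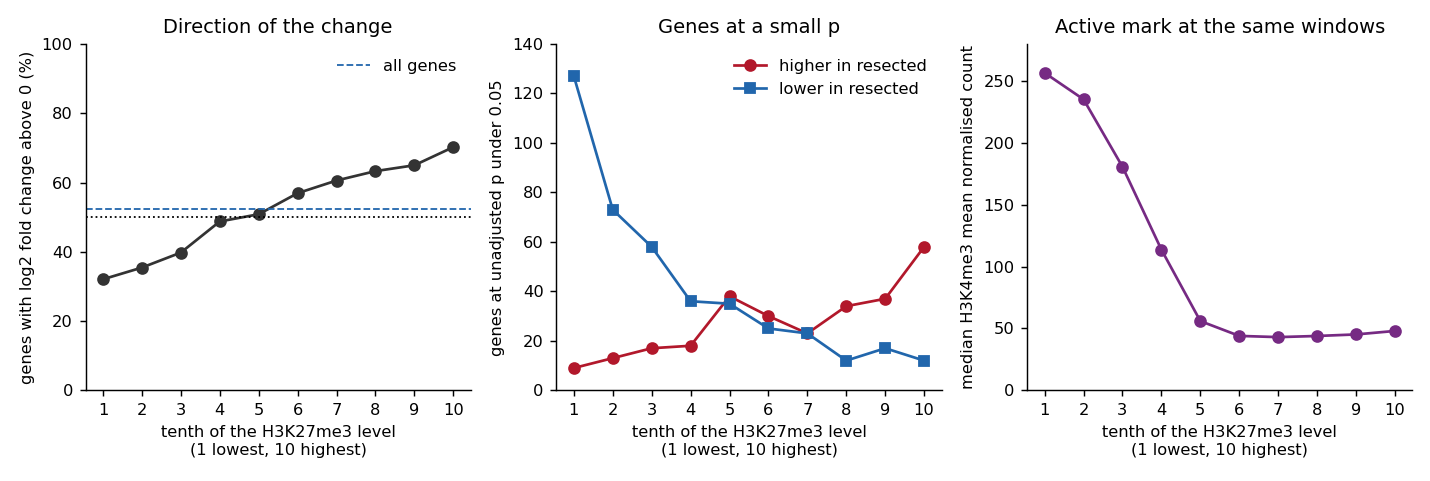
Genes in 10 equal groups by H3K27me3 level, from lowest (1) to highest (10). Left, the percentage with a log2 fold change of resected over uninjured above 0, with all genes dashed and 50% dotted. Middle, genes at an unadjusted p under 0.05 that were higher or lower in resected ventricle. Right, the median H3K4me3 mean normalised count. The share above 0 climbs from 32.1% to 70.2% while H3K4me3 drops from 257 to 48.0.

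Neighbouring windows shared little of the difference. The Wald statistics of windows of different positions 4 to 8 kb apart had a Pearson correlation of 0.11 over 6305 pairs, and 0.02 at 100 to 500 kb over 39601 pairs. These are descriptions over pairs from the same 6 libraries.

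In the sarcomere, the lean was towards more H3K27me3 in resected ventricle, and of its 3 lists the thick filament carried it most evenly. All 16 thick filament genes had a log2 fold change above 0, by a median of 0.46, and 14 of 16 lay above the median of their level group. Taken with the thin filament and the Z-disc and M-band, 64 of 89 sarcomere genes (71.9%) lay above 0 and 60 of 89 (67.4%) above their level group, with a median log2 fold change of 0.25. At an unadjusted p under 0.05 stood 5 above and 0 below, where all genes had 1.15% above and 1.74% below. The lists were chosen with a lean of sarcomere genes already known in these data, so the counts are a description. Lists of other tissues also lay mostly above 0, and nearer to balance within their level groups. The skeletal muscle list, which shares some genes with the sarcomere lists, had 32 of 46 (69.6%) above 0 and 24 of 46 (52.2%) above its level group, and the neuronal list 28 of 39 (71.8%) and 21 of 39 (53.8%).

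Motor proteins headed the thick filament. For myh7ba, a slow or cardiac-type myosin heavy chain (chromosome 11, 24973649 to 24977648), the implied means were 103 normalised counts in resected and 62.5 in uninjured ventricle. The log2 fold change was 0.72 (SE 0.36, unadjusted p = 0.0451), and its window overlaps that of another gene. The light chain gene MYL3 had 103 in resected and 67.2 in uninjured ventricle, and the atrial and ventricular light chain myl7 had 83.4 and 55.6, with log2 fold changes of 0.61 and 0.58. vmhc, the ventricular myosin heavy chain, had 92.5 in resected and 62.1 in uninjured ventricle (0.57, SE 0.39), and the essential light chain cmlc1 had 91.0 and 62.5 (0.54, SE 0.38). The intervals of these 4 all reach below 0. unc45b, a myosin chaperone, and mylk3, the cardiac myosin light chain kinase, had 0.67 (SE 0.41) and 0.59 (SE 0.46). At the low end lay myh6, the atrial myosin heavy chain, with 63.3 in resected and 60.7 in uninjured ventricle (0.06, SE 0.40), myh7bb (0.07) and the methyltransferase smyd1b (0.08). At these windows the authors called 5 of the 16 lower for H3K4me3 and 0 higher, where 1.31% and 1.58% of all genes with an adjusted p were called so. Members without an adjusted p for H3K4me3, among them vmhc and myh6, count in the 16 but could not be called.

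The thin filament and the Z-disc leaned the same way with more exceptions. The thin filament share above 0, 64.5%, is near the 61.8% to 63.8% of all genes in the 5 lowest H3K4me3 groups. In the thin filament 20 of 31 genes lay above 0 and 19 of 31 above their level group, from tmod1, which caps the pointed end of actin, with 89.3 in resected and 53.3 in uninjured ventricle (0.74, SE 0.40), to tmod4, a relative, with 53.1 and 81.3 (-0.61, SE 0.40). tpma, a tropomyosin, had the highest level of the list at 106 and a log2 fold change of 0.36. The Z-disc and M-band list had 28 of 42 above 0, and 27 of 42 above their level group. It held 4 genes at an unadjusted p under 0.05: xirp2b, an actin-binding Xin repeat protein (76.9 in resected and 39.8 in uninjured ventricle, log2 fold change 0.95, SE 0.40), ttn.1, one of the titin genes (90.3 and 53.1, log2 fold change 0.77), flnca, a filamin (0.80), and myot, myotilin (0.75). In the other direction lay cmya5 (-0.81, SE 0.45) and the M-band gene myom2b (-0.81, SE 0.48), both at an unadjusted p above 0.05.

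The cytoskeleton outside the sarcomere did not share this lean. Of 102 genes of the actin and adhesion cytoskeleton, 44 (43.1%) lay above 0 and 49 (48.0%) above their level group, by a median of -0.07. The members ran both ways. vcla, vinculin of the cell adhesions, had 100.4 in resected and 58.5 in uninjured ventricle (0.78, SE 0.36, unadjusted p = 0.0313), and coro1cb, an actin-binding coronin, had 97.9 and 63.0 (0.64, SE 0.36). Against these stood arpc2, a subunit of the branching complex Arp2/3, with 39.5 in resected and 85.6 in uninjured ventricle (-1.12, SE 0.43, unadjusted p = 0.0086), its fellow subunit gene arpc4 (-1.0), the filamin-binding gene fblim1 (-0.74) and the keratin krt8 (-1.13). The difference between the sarcomere and cytoskeleton counts was not tested, and these lists were not matched by H3K4me3 level.

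Genes of cell division leaned towards less of the mark, and so did genes of any function with much H3K4me3. In groups 9 and 10 of the 10 by H3K4me3 level, 36.0% and 28.6% of all genes lay above 0. The lists were not matched by H3K4me3 level, so a lean particular to cell division was not tested. The cytokinesis and mitotic spindle list had 19 of 52 (36.5%) above 0, and 23 of 52 (44.2%) above their level group. nuf2, of the kinetochore, had 24.4 in resected and 57.2 in uninjured ventricle (-1.23, SE 0.51, unadjusted p = 0.0162). aurkb, a mitotic kinase, had 29.3 and 57.4 (-0.97, SE 0.54), and prc1a, which bundles spindle microtubules, 40.4 and 25.3 (0.67, SE 0.51). DNA replication genes had 15 of 57 (26.3%) above 0 and the same number above their level group, with a median of -0.20. Their extremes were orc1, of the origin recognition complex (11.1 in resected and 31.4 in uninjured ventricle, log2 fold change -1.50), mcm6, of the replicative helicase (24.2 and 51.9, log2 fold change -1.1), and rrm1, a ribonucleotide reductase subunit (46.5 and 28.4, log2 fold change 0.71). 9 genes of each list, out of all its members, were called higher for H3K4me3 and 0 lower. Of all genes with an adjusted p, 1.58% and 1.31% were called so. 31 of the 57 replication genes have a window that overlaps that of another gene. Histone genes, which are copied in tandem and whose reads can be shared, had 13 of 50 above 0 and 14 of 50 above their level group. 4 of the 50 lay below 0 at an unadjusted p under 0.05, against 1.74% of all genes, and 42 have overlapping windows.

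**Figure D3:**
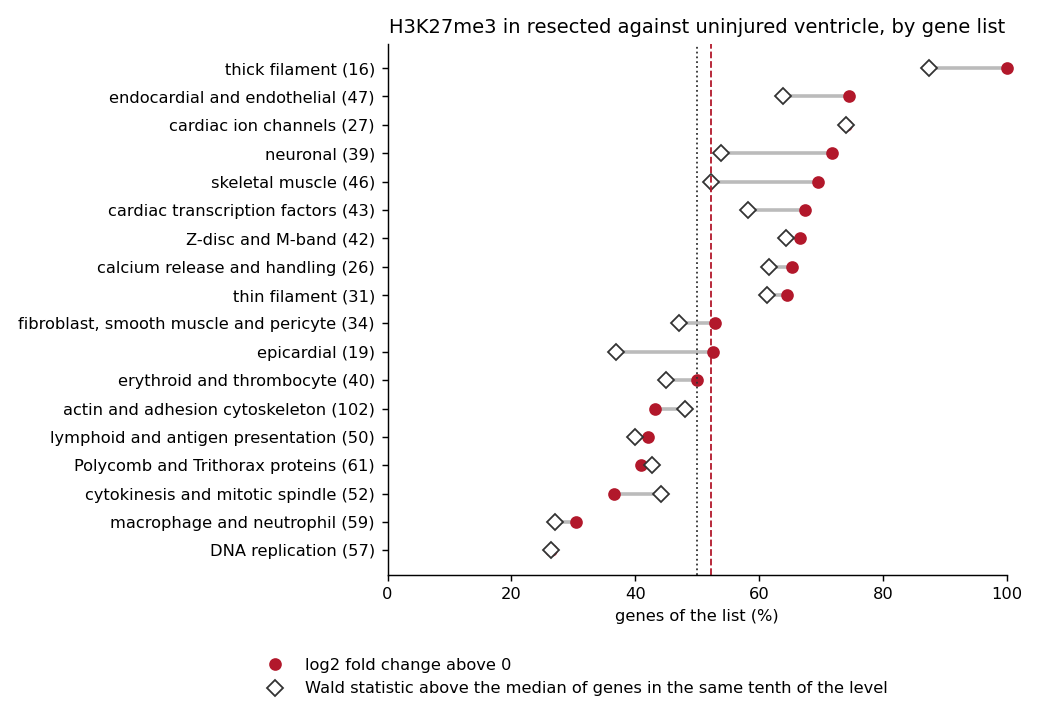
Percentage of each gene list with an H3K27me3 log2 fold change of resected over uninjured above 0 (circles) and with a Wald statistic above the median of genes of the same level (diamonds), with the number of genes in brackets. The dashed line is the share of all genes above 0 (52.3%) and the dotted line 50%. The thick filament stands at 100% and 87.5%, and DNA replication at 26.3% for both.

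Genes of excitation and contraction coupling leaned with the sarcomere. Calcium release and handling genes had 17 of 26 above 0, by a median of 0.22, and 16 of 26 above their level group. jph1a, a junctophilin that ties the surface membrane to the sarcoplasmic reticulum, had 75.4 in resected and 37.7 in uninjured ventricle (1.00, SE 0.43, unadjusted p = 0.0198), and the calcium pump gene atp2a2b had 62.3 and 43.7 (0.51, SE 0.42). sypl2a, mitsugumin 29 of the triad, ran the other way with 32.1 in resected and 66.1 in uninjured ventricle (-1.04, SE 0.49, unadjusted p = 0.034). Cardiac ion channels had 20 of 27 above 0 and 20 of 27 above their level group, by a median of 0.31, and 4 at an unadjusted p under 0.05, where 1.15% of all genes stood. kcnj8, the pore of an ATP-sensitive potassium channel, had 94.5 in resected and 39.7 in uninjured ventricle (1.25, SE 0.43, unadjusted p = 0.00325). cacnb2a and cacna2d1a, the accessory beta and alpha-2-delta subunits of calcium channels, had 103 and 73.0 in resected against 48.9 and 34.1 in uninjured ventricle (1.07 and 1.1). kcnj2a, an inward rectifier, had 96.5 and 57.1 (0.76, SE 0.37). The paralogue cacnb2b did not lean with cacnb2a and had 72.5 in resected and 96.5 in uninjured ventricle (-0.41, SE 0.41).

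Among cardiac transcription factors, the GATA family leaned one way. All 8 GATA genes had a log2 fold change above 0, by a median of 0.49, and 7 of 8 lay above their level group. The family's 3 genes of the heart came first. gata4 (chromosome 20, 53160462 to 53164461) had 99.1 in resected and 32.8 in uninjured ventricle (1.59, 95% interval 0.78 to 2.41, unadjusted p = 0.000128). gata6 had 87.2 and 42.1 (1.05, interval 0.24 to 1.86), and gata5 had 79.6 and 43.7 (0.86, interval 0.07 to 1.66). Their H3K27me3 means of 61.7 to 65.9 are close to that of the median gene, while their H3K4me3 means are 417 to 700. The blood and endothelial factors followed with 0.51 at gata2a, 0.47 at gata1a and 0.44 at gata1b, and gata3 had 0.41, each with an interval that includes 0. gata2b had 0.10 with the widest interval, -1.13 to 1.34.

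The wider list of cardiac factors had 29 of 43 above 0, but 25 of 43 above their level group. At an unadjusted p under 0.05 stood 5 of its genes, all above 0, where all genes had 1.15% above and 1.74% below. Beside the GATA genes, the 5 held meis1b, a homeobox cofactor of myocardium, with 85.8 in resected and 46.5 in uninjured ventricle (0.88, SE 0.39). They also held irx1a, an Iroquois factor, with 171 and 111 (0.62, SE 0.31). nkx2.5, chosen for naming after its values were seen, had 157 and 100.2 (0.64, SE 0.33, unadjusted p = 0.0517). The Irx genes ran both ways. irx1a and irx2a, on chromosome 16, had 0.62 and 0.88, irx5a and irx6a on chromosome 7 had 0.16 and 0.31, and irx3a, irx3b, irx5b and irx7 had values between -0.51 and -0.28. irx2a and irx1a were the family's 2 members at an unadjusted p under 0.05, both above 0, where 1.15% of all genes stood.

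The Hox genes, the family highest in level, were near balance around 0 and low for their level. 13 of 27 lay above 0, by a median of -0.01, and 7 of 27 (25.9%) lay above the median of their level group. Their log2 fold changes ran from -0.36 (hoxb1a) to 0.40 (hoxc13b) with SE values of 0.30 to 0.38, and none had an unadjusted p under 0.05. Of the hoxb genes 2 of 8 lay above 0 and 0 of 8 above their level group, and of the hoxc genes, on chromosomes 11 and 23, 7 of 9 and 4 of 9. Hox genes on the same chromosome are neighbours there, and 7 of the 27 windows overlap another. Dlx genes had 2 of 6 above 0 and T-box genes 7 of 17, whereas the sine oculis family had 8 of 9 and Nkx genes 9 of 12.

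**Figure D4:**
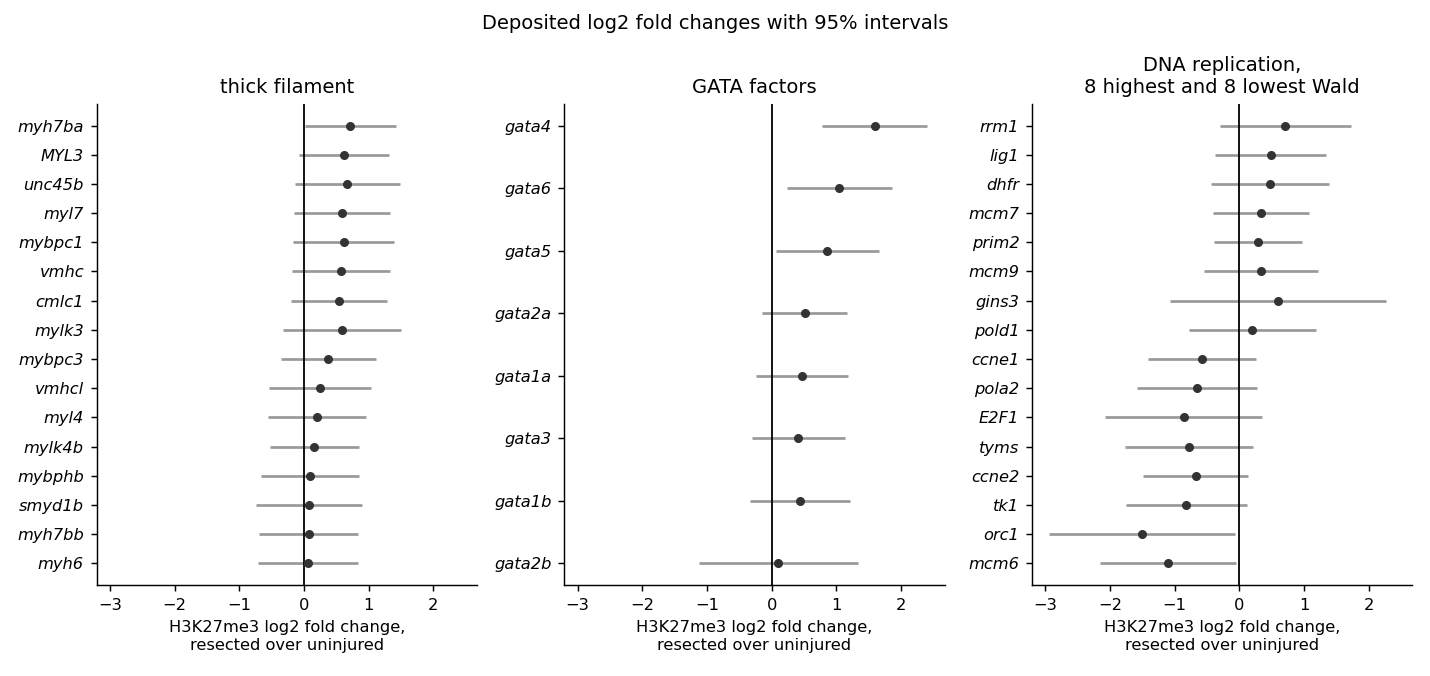
Deposited log2 fold changes of H3K27me3, resected over uninjured, with 95% intervals from the deposited SE. Panels show the thick filament genes, the GATA factors, and the DNA replication genes with the 8 highest and 8 lowest Wald statistics, each ordered by Wald statistic. All 16 thick filament and 8 GATA genes lie above 0, and 1 and 3 of their intervals do so whole.

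Leukocyte genes leaned the opposite way. Of 59 macrophage and neutrophil genes, 18 (30.5%) lay above 0 and 16 (27.1%) above their level group, by a median of -0.23, although their level, 60.9, is that of the median gene. At an unadjusted p under 0.05 stood 3, all below 0, where 1.74% of all genes stood. Among them lcp1, the leukocyte plastin, had 53.7 in resected and 93.6 in uninjured ventricle (-0.80, SE 0.39), and cebpa, a myeloid transcription factor, 68.6 and 118 (-0.78, SE 0.39). At the other end il6r had 64.3 in resected and 47.9 in uninjured ventricle (0.42, SE 0.40). The lymphoid and antigen presentation list had 21 of 50 above 0 and 20 of 50 above their level group. Its lowest members were rfx5 and rfxank, partners in the complex that drives MHC class II genes. rfx5 (chromosome 19, 7572793 to 7576792) had 11.3 in resected and 57.4 in uninjured ventricle (-2.35, SE 0.66, unadjusted p = 0.000361), and rfxank had 20.2 and 63.5 (-1.65, SE 0.55). Both windows overlap that of another gene. ikzf1, a lymphoid zinc finger factor, had 84.1 in resected and 141 in uninjured ventricle (-0.75, SE 0.38). Highest of the list by Wald statistic were il7r, with 75.2 in resected and 46.5 in uninjured ventricle (0.69, SE 0.40), and stat1b, with 107 and 72.7 (0.56, SE 0.36). The intervals of il7r and stat1b include 0. Erythroid and thrombocyte genes had 20 of 40 above 0, 18 of 40 above their level group and 0 at an unadjusted p under 0.05 in either direction.

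Among the other cells of the heart, the endocardial and endothelial list had 35 of 47 (74.5%) above 0 and 30 of 47 above their level group. The list holds tnnt3b, a skeletal troponin gene written into it in error, and without it the counts were 34 of 46 and 29 of 46. prox1a, a homeobox factor of lymphatic endothelium, had 120 in resected and 62.7 in uninjured ventricle (0.93, SE 0.34, unadjusted p = 0.00539), and heg1, a receptor of the endocardium, had 91.4 and 46.4 (0.98, SE 0.39). klf2a, a flow-responsive factor, had 32.2 and 55.6 (-0.79, SE 0.50). Epicardial genes had 10 of 19 above 0 and 7 of 19 above their level group. The list ran both ways. The transcription factors tcf21, tbx18, wt1b and wt1a had -0.18, -0.23, -0.28 and -0.49, with intervals that include 0. Among the 10 above 0 were gata5 at 0.86, pdgfra at 0.57, cxcl12a at 0.54 and rspo1 at 0.41. Fibroblast, smooth muscle and pericyte genes had 18 of 34 above 0 and 16 of 34 above their level group. This list too ran both ways. At its upper end cspg4 had 71.1 in resected and 40.2 in uninjured ventricle (0.82, SE 0.42, unadjusted p = 0.0497), and col6a1 had 60.3 and 36.2 (0.74, SE 0.45). At its lower end col1a1b, a fibrillar collagen chain, had 32.8 in resected and 77.0 in uninjured ventricle (-1.23, SE 0.46, unadjusted p = 0.00783), and twist1a, a mesenchymal factor, 89.7 and 150.4 (-0.75, SE 0.35).

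The genes that encode the Polycomb machinery were read for their own mark. Of 61 Polycomb and Trithorax genes, 25 lay above 0 and 26 above their level group. At an unadjusted p under 0.05 stood 4, all below 0, where all genes had 1.15% above and 1.74% below. These were kmt2e, of the Trithorax group (17.5 in resected and 48.3 in uninjured ventricle, log2 fold change -1.47), cbx7a, a PRC1 subunit (25.9 and 57.3, log2 fold change -1.14), and 2 subunits of PRC2. Among the PRC2 subunits, ezh1 had 19.9 in resected and 45.4 in uninjured ventricle (-1.19, SE 0.59) and eed had 40.2 and 79.9 (-0.99, SE 0.46, window shared with another gene). By level, kmt2e, cbx7a and ezh1 belong to the 2 lowest of the 10 groups. At an unadjusted p under 0.05 those groups held 127 of 2408 and 73 of 2407 genes below 0, and 9 and 13 above. A lean particular to Polycomb and Trithorax genes was not tested. The catalytic subunit gene ezh2 had 33.7 and 31.0 (0.12, SE 0.51), suz12a 68.9 and 61.1 (0.17) and suz12b 70.3 and 72.2 (-0.04). kdm6ba, an H3K27 demethylase, had 61.0 in resected and 34.7 in uninjured ventricle (0.81, SE 0.47).

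The genes with the smallest p outside these lists were of many kinds. Above 0 they included camsap1a, which binds microtubule minus ends (147 in resected and 67.0 in uninjured ventricle, log2 fold change 1.13), the transcription factor creb5a (59.1 and 22.4, log2 fold change 1.40), the peroxisomal import gene pex14 (53.2 and 19.7, log2 fold change 1.43) and tonsl, of replication fork repair (132 and 67.3, log2 fold change 0.98). Below 0 they included nfe2l3, a leucine zipper factor (19.9 in resected and 75.7 in uninjured ventricle, log2 fold change -1.93), dnmt3ba, a DNA methyltransferase (29.9 and 94.3, log2 fold change -1.66), cbfb, the partner of Runx factors (48.9 and 118, log2 fold change -1.26), and gpr84, a leukocyte receptor (29.1 and 83.5, log2 fold change -1.52). Their unadjusted p-values ran from 0.000415 at nfe2l3 to 0.00487 at tonsl.

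H3K27me3 leaned against H3K4me3 at the windows where the active mark changed. The authors called H3K4me3 lower in resected ventricle at 376 windows (1.52% of 24769 with an adjusted p) and higher at 357 (1.44%). H3K27me3 lay above 0 at 296 of the 376 windows called lower (78.7%), at 88 of the 357 called higher (24.6%) and at 9552 of 24036 tested and not called (39.7%), against 48.9% of all windows. The medians of the H3K27me3 log2 fold change were 0.29, -0.19 and -0.11. At an unadjusted p for H3K27me3 under 0.05, the windows called lower held 29 above 0 and 0 below, and those called higher held 2 above and 26 below. The 24036 windows tested and not called held 157 above and 721 below, so they too had more below 0. Over all windows the shares at that p were 0.996% above and 2.1% below. Counted against the median of windows of the same H3K27me3 level, 77.4% of the windows called lower and 29.7% of those called higher lay above it. With 1 window per gene, 167 genes (1.31%) were called lower and 202 (1.58%) higher for H3K4me3, and H3K27me3 lay above 0 at 133 of the 167 (79.6%) and 56 of the 202 (27.7%). The 2 marks come from separate libraries, and whether they share hearts is not stated. Windows that overlap count more than once.

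**Figure D5:**
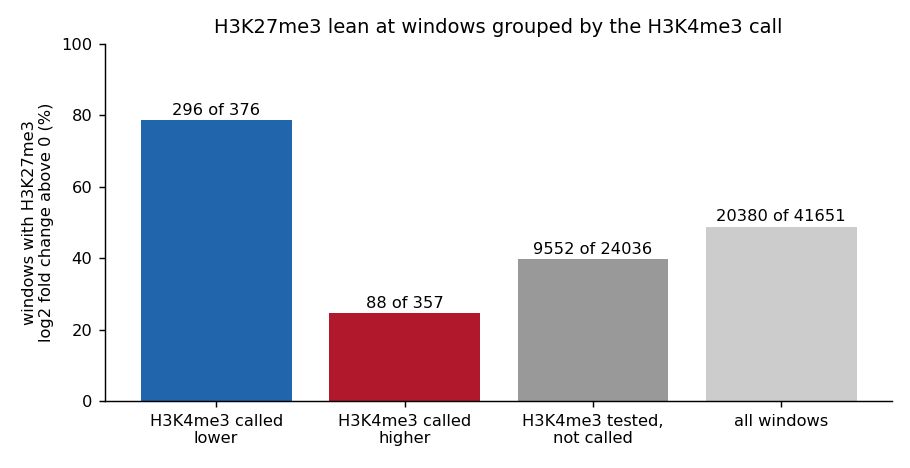
Percentage of windows with an H3K27me3 log2 fold change of resected over uninjured above 0, for windows where H3K4me3 was called lower, called higher, or tested and not called, and for all windows. Numbers over the bars are windows above 0 of all in the group. The share is 78.7% where H3K4me3 was lower and 24.6% where it was higher.

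Markers of the cell types that the preparation could hold were read beside these leans, each at its gene's window of highest H3K4me3, which can differ from the window of highest H3K27me3 used above. The median H3K4me3 mean was 119 for 7 cardiomyocyte markers, 244 for 5 endocardial, 154 for 4 epicardial, 92.4 for 5 myeloid, 179 for 5 erythroid and 303 for 2 fibroblast and mural genes, where the median gene had 96.3 at such windows. The erythroid symbols match 5 gene entries, and the windows of hbaa1 and of 1 hbba1 entry overlap and so share reads. The lowest marker stood at 40.6, in the myeloid set, of which 2 of 5 lay above the median gene, and 4 of 7 cardiomyocyte markers did. The median H3K4me3 Wald statistic was -4.72 for the cardiomyocyte markers, with 0 of 7 above 0, and 4.01 for the myeloid markers, with 4 of 5 above 0. It was 2.38 for the epicardial markers, 2.8 for the erythroid, -2.01 for the endocardial and -0.0042 for the fibroblast and mural. At these windows, where 49.8% of all genes lay above 0 for H3K27me3, the mark lay above 0 at 7 of 7 cardiomyocyte, 4 of 5 endocardial, 0 of 4 epicardial, 1 of 5 myeloid, 1 of 5 erythroid and 2 of 2 fibroblast and mural markers. The longer epicardial and erythroid lists, with 10 of 19 and 20 of 40 above 0, were read at their windows of highest H3K27me3 and did not share the direction of these few markers. The longer fibroblast, smooth muscle and pericyte list, read in the same way, had 52.9% above 0 and did not share the 2 of 2 either. In chromatin of mixed cells, a different share of cells that carry the mark and a different amount of the mark per cell cannot be told apart. The part of cell composition in the leans was not tested.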

How the data were processed

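H3K27me3 was measured by ChIP-seq in 6 libraries, 3 per group. Without giving roles, the submitters' processing notes list DESeq2, MACS2, SAMtools, bedtools 2.26.0, Picard 2.8.1, BWA and Bowtie2 2.3.2. They list danRer10, GRCz10 and danRer7 as builds, and do not say which of them the windows use. Positions are 1-based.

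Per the file headers, the deposited signal is the mean normalised count over the libraries compared. The log2 fold change and its SE are the authors' deposited values. The score is the authors' deposited Wald statistic, and each p-value and adjusted p-value is theirs too. The sources used here give no values per library, depths or size factors, so no model was refitted and the authors' DESeq2 comparison stands as the test. No window with an H3K27me3 test was filtered out for low counts. Of these 41651 windows, 24769 had an adjusted p for H3K4me3, and the others could not be called for that mark. The adjusted threshold was 0.05.

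From these values, Python 3.11.15 with pandas 2.3.3, numpy 2.4.6 and scipy 1.17.1 gave 1 window per gene (highest H3K27me3 mean), 10 equal level groups, 95% intervals (1.96 SE), implied group means, and counts and medians of 18 gene lists and 50 families found by name. List entries matched a symbol of the tables (768), a gene name table (27) or nothing (104). Promoter sequences were not used here. The counting steps were tested on simulated data. The members and lists were chosen with earlier results of these data known. Genes named have a symbol that is no clone name and are the 20 highest by mean, the 10 with the smallest p in each direction, the extremes of each list by level and Wald statistic, the highest of each family and the PRC2 subunits. Family and list members set beside these were named after their values were seen. P-values rest on 3 libraries per group. The alternatives tried were other windows per gene, minimum counts, overlapping windows and chromosome 4 left out, and centring on all genes or within level groups. 1 gene that this rule selects is not reported here.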

Additional observations from a re-analysis of the deposited data

How the results depend on the processing

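The number of called windows was 0 as deposited and after adjusting again over windows with a mean count of at least 10, 30 or 100, over 1 window per gene and without chromosome 4. With a mean count of at least 100, windows at an unadjusted p under 0.05 made up 2.35% above 0 and 0.362% below (52 and 8 of 2212), against 0.996% and 2.1% of all windows. All 36 alternative level medians moved by less than the SD between libraries implied by the SE, which is 0.53 log2 units at the median SE. That SD describes 1 window in 1 library and is wider than several differences between a list's median and the median gene. It is therefore a loose bound and does not show that the smaller level differences hold. Of 109 alternative list shares, 105 stayed within the 95% Clopper-Pearson interval of the list's share, which is wide for short lists. Inside it the epicardial list still reached 36.8% (52.6% as reported), the fibroblast list 66.1% (52.9%) and DNA replication 38.5% (26.3%). Outside it were the cytokinesis list at 21.2% and the Polycomb and Trithorax list at 24.6% above 0 with each gene's window of highest H3K4me3, and the neuronal list at 53.8% and the skeletal muscle list at 52.2% when centred within level groups. Windows called higher for H3K4me3 stood at 29.7% in that centring. The thick filament stayed between 87.5% and 100%. Leaving tnnt3b out of the endocardial list, chosen after seeing the data, gave 73.9%.

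No paired analysis was possible because the tables hold no values per library. Leaving out each replicate was not run for the same reason, so whether 1 library carries a lean is unknown. The limit is the SE: with 3 libraries per group and a median mean count of 56.3 per window, a difference under 1.80-fold lay within the 95% interval of the typical window.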

Other observations

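Some groups by gene name leaned as evenly as the lists of the report. Of the Fgf ligands, secreted growth factors, 18 of 21 had an H3K27me3 log2 fold change above 0, by a median of 0.26, and 16 of 21 lay above their level group. Collagens had 44 of 57 above 0 and 40 of 57 above their level group, although col1a1b lay at -1.23. Frizzled receptors, which bind Wnt proteins, had 10 of 12 and 9 of 12. Solute carriers, a large family of mixed function, stood at 188 of 379 (49.6%), close to the 52.3% of all genes, and the ZNF zinc finger genes at 177 of 328 (54.0%). Splicing factors had 25 of 74 above 0 and 5 below 0 at an unadjusted p under 0.05, where 1.74% of all genes stood, with 32 of 74 above their level group. In groups 9 and 10 of the 10 by H3K4me3 level, 36.0% and 28.6% of all genes lay above 0. The lowest H3K27me3 level group held 127 of 2408 genes below 0 at that p. The families were not matched by H3K4me3 level. These families were looked at without a test, and no cause was weighed.

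The 22 windows of the mitochondrial genome, which carries no nucleosomes, were left out of all counts. Their H3K27me3 means ran from 469 to 1217 normalised counts and their log2 fold changes from -2.09 to -1.74, with SE values of 0.63 to 0.75. All 22 had an unadjusted p under 0.05 and 0 an adjusted p under it. For H3K4me3 the same windows had deposited log2 fold changes from -1.62 to -1.02, and all 22 were called lower. The fold changes of the marks come from separate fits and are not compared in size. The windows share reads with each other and are not 22 separate results.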
